A study of Mus musculus with 31 samples.

Results

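Most of the 46 genes described here copy DNA or license, start, protect and finish that copying. Others, such as Gmnn and E2f1, regulate it, and Chaf1a and Chaf1b assemble chromatin. All 46 were listed by name, with earlier results of these data known. A gene counted as measured where a row of the deposited array table carries its symbol alone. All 46 were found among the 19938 genes that the table names, and all 46 entered every test, since no filter on low signal was used. Pcna and Rpa3 have more than 1 row, and the row with the highest mean over the 31 arrays was taken. The study followed mouse embryonic fibroblasts (MEFs), primary cells that divide for a limited time in culture, after infection with retroviruses at day 0. The 4F arm received Oct4, Sox2, Klf4 and c-Myc, the mix that turns some fibroblasts into induced pluripotent cells. The 3F arm received Oct4, Sox2 and Klf4 without c-Myc, as its labels name them, and the control arm received GFP. The source label of 3F speaks of 4 factors but lists only these 3, and its arrays were grouped by their titles. Uninfected MEFs at day 0 are the common start. Day 0, 4F on days 1, 2, 3, 4, 5, 6 and 8, and GFP on days 1, 3, 5 and 8 have 2 arrays each, which the labels call biological replicates. A single array stands for each of the 3F days (3, 5, 8 and 12), for day 12 of GFP, and for days 10 and 12 of 4F. The cultures are pools of infected cells, and few infected cells become pluripotent. All cells grew in medium with 10% serum, and no strain or embryo age is used here.

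DNA replication is prepared in G1 phase, when the origin recognition complex, Cdc6 and Cdt1 load the MCM2-7 helicase onto DNA, a step called licensing. In S phase the kinase Cdc7, Cdc45 and the GINS complex turn the loaded helicase on, primase and the polymerases copy both strands, and the clamp Pcna holds the polymerases on DNA. Many of these genes are transcribed under E2F factors, which the pocket proteins hold back in resting cells. Fibroblasts that stop dividing lower them, whereas pluripotent cells cycle with a short G1 phase.

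The promoters of the 3 genes with the largest difference in GFP cells on day 8, and of the 3 with E2F letters closest to the start site, are shown because the members moved together. RefSeq promoters (GRCm38.p6, 250 bases before to 50 after the start) were used for 36 of the 46 members. Each line runs 5′ to 3′ on the strand of the gene, and capitals mark TTTCCCGC, TTTGGCGC, TTTCGCGC or TTTGCCGC, forms of the E2F consensus, or their reverse complements. Prim1, of primase, lies at chr10:128014965-128015264 (plus strand). Wdhd1, a fork scaffold, lies at chr14:47276808-47277107 (minus), and Mcm3, of the helicase, at chr1:20820263-20820562 (minus). Rfc3, of the clamp loader, lies at chr5:151651159-151651458 (minus), Pole2, of polymerase epsilon, at chr12:69228141-69228440 (minus), and Mcm7, of the helicase, at chr5:138171834-138172133 (minus).
Prim1: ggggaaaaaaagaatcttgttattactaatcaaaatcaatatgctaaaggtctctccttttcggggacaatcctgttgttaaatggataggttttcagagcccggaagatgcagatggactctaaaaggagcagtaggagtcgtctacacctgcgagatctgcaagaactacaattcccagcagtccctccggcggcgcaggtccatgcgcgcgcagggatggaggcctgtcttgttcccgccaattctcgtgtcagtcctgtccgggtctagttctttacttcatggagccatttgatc
Wdhd1: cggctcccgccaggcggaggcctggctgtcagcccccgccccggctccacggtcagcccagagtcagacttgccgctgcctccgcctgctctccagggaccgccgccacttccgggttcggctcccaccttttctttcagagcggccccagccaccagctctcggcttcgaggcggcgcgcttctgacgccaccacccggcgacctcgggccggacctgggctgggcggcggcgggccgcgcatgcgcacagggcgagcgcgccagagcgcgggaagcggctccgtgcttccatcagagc
Mcm3: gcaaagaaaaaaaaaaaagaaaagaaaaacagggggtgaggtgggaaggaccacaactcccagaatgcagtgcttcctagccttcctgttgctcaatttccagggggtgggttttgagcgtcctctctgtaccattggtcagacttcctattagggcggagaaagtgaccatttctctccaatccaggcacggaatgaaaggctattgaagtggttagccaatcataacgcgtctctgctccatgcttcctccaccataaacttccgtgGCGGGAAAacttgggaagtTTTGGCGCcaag
Rfc3: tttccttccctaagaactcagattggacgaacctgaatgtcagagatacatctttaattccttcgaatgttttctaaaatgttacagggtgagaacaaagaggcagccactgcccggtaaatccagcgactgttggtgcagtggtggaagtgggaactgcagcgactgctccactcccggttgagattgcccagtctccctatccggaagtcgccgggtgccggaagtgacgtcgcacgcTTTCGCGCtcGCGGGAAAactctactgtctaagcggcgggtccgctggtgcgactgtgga
Pole2: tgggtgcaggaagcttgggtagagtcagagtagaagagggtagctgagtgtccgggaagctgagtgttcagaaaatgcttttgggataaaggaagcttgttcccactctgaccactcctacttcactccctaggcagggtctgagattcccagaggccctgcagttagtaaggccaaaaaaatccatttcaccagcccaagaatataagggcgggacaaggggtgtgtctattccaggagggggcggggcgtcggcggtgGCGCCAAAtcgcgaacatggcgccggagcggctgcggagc
Mcm7: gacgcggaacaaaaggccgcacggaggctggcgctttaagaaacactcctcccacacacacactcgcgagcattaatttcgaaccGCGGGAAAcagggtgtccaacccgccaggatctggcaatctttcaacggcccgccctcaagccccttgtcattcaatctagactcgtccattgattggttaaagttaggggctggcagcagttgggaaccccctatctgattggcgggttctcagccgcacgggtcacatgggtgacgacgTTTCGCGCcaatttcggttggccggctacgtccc
Prim1 and Wdhd1 hold none of these letters in this window, while Mcm3, Rfc3 and Mcm7 hold 2 matches each and Pole2 holds 1. In Mcm7 the matches start at -165 and 17 from the start site, and in Rfc3 at -10 and 1. Of the 36 members, 14 hold a match (38.9%), against 704 of all 27025 genes of the promoter table (2.6%). These 14 are Cdc6, Cdt1, Gins3, Lig1, Mcm3, Mcm5, Mcm6, Mcm7, Mcm8, Orc1, Pola1, Pold1, Pole2 and Rfc3. The letters CCAAT, on either strand, were in 21 of the 36 (58.3%, against 41.1% of all genes). The E-box CACGTG, a form of the site that Myc binds, was in 6 (16.7%, against 8.09%), namely Chaf1a, Fen1, Lig1, Mcm8, Pola2 and Rpa1. Matches overlapped in Mcm5 and Mcm6 (a pair of E2F matches each) and in Mcm7 (E2F with CCAAT). A match says only that the letters are there. Only exact letters were searched, so a gene without a match may hold a variant form. The median difference between GFP day 8 and day 0 was -1.55 on the log2 scale over the 14 with E2F letters and -1.40 over the 22 without, with ranges of -2.07 to -0.80 and -2.31 to -0.05.

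The table holds log2 signals, so a difference of 1 is a 2-fold change, and signals of different genes are not set against each other. Array medians over all rows lay between 6.04 and 6.17, and the number of arrays limits the precision. The labelling reaction took 120 ng of RNA for arrays numbered replicate 1 and 300 ng for all others. By number there are 12 arrays of replicate 1, 12 of replicate 2 and 7 with none, called sets below. Every group with 1 array lies in the last set, where the set and the group cannot be told apart. At day 0 the 9 fibroblast markers measured ran from 5.77 (Lum) to 13.26 (Vim), and 7 macrophage genes ran from 5.11 (Ptprc) to 7.18 (Lyz2). Since each probe has its own scale, these levels do not settle how pure the fibroblasts were. Pou5f1, which encodes Oct4, was 5.44 at day 0 and, on day 8, 8.98 in 4F, 7.83 in 3F and 5.36 in GFP. The row of Myc was 9.64 at day 0 and, on day 8, 7.45 in 4F, 9.37 in 3F and 8.44 in GFP. The row of Klf4 was 7.76 at day 0 and, on day 8, 7.13 in 4F, 8.49 in 3F and 8.06 in GFP. The row of Sox2 was 5.82 at day 0 and, on day 8, 7.5 in 4F, 6.27 in 3F and 5.43 in GFP. No source used here gives the part of the transcript that any of these rows reads, so they do not check the delivered factors.

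Over the 46 genes the GFP arm sank and the 4F arm stayed near its start, with small positive medians through day 8. The median difference from day 0 in GFP was -0.51 on day 1, -0.42 on day 3, -0.77 on day 5 and -1.41 on day 8, a 2.66-fold lower signal, and -1.30 in the single day 12 array. In 4F the medians were 0.05, 0.18, 0.11, 0.26, 0.30, 0.22 and 0.09 on days 1, 2, 3, 4, 5, 6 and 8. The single 4F arrays of days 10 and 12 gave -0.21 and -0.25. In 3F the medians were -0.32, -0.29, -0.59 and 0.03 on days 3, 5, 8 and 12. The median over all 19938 genes lay between -0.03 and 0.02 in each of these groups. In bulk RNA, fewer cells in the cycle and less of these RNAs per cell cannot be told apart. All differences from day 0 share the same 2 uninfected arrays.

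**Figure D1:**
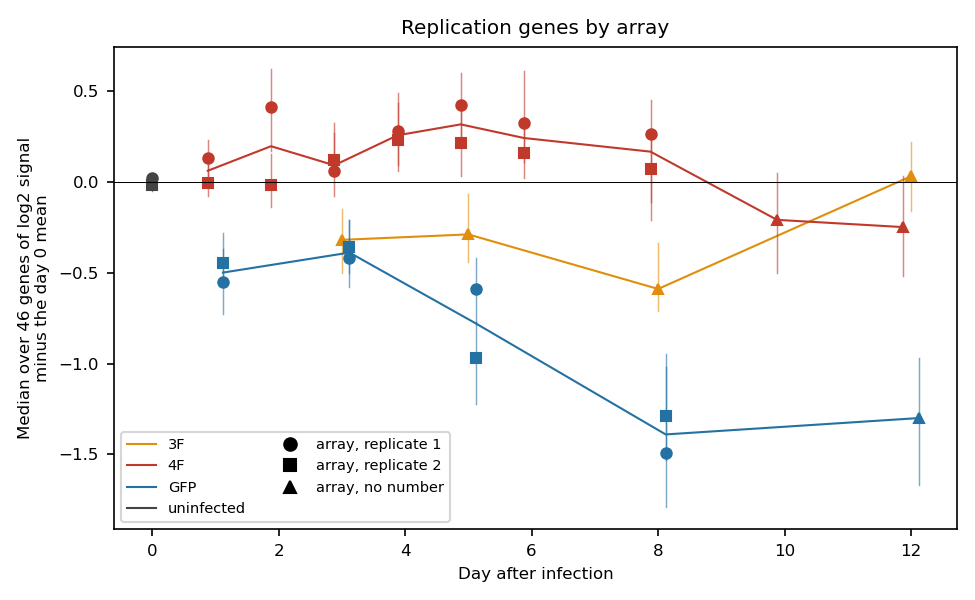
Median over the 46 genes of the log2 signal minus the day 0 mean (y) in each array by day (x), with thin bars from the first to the third quartile of the genes. Colours mark the arm, symbols the replicate set, and lines join the group means. The GFP arrays of day 8 sit at -1.49 and -1.29, the 4F arrays of that day at 0.26 and 0.07.

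**Figure D2:**
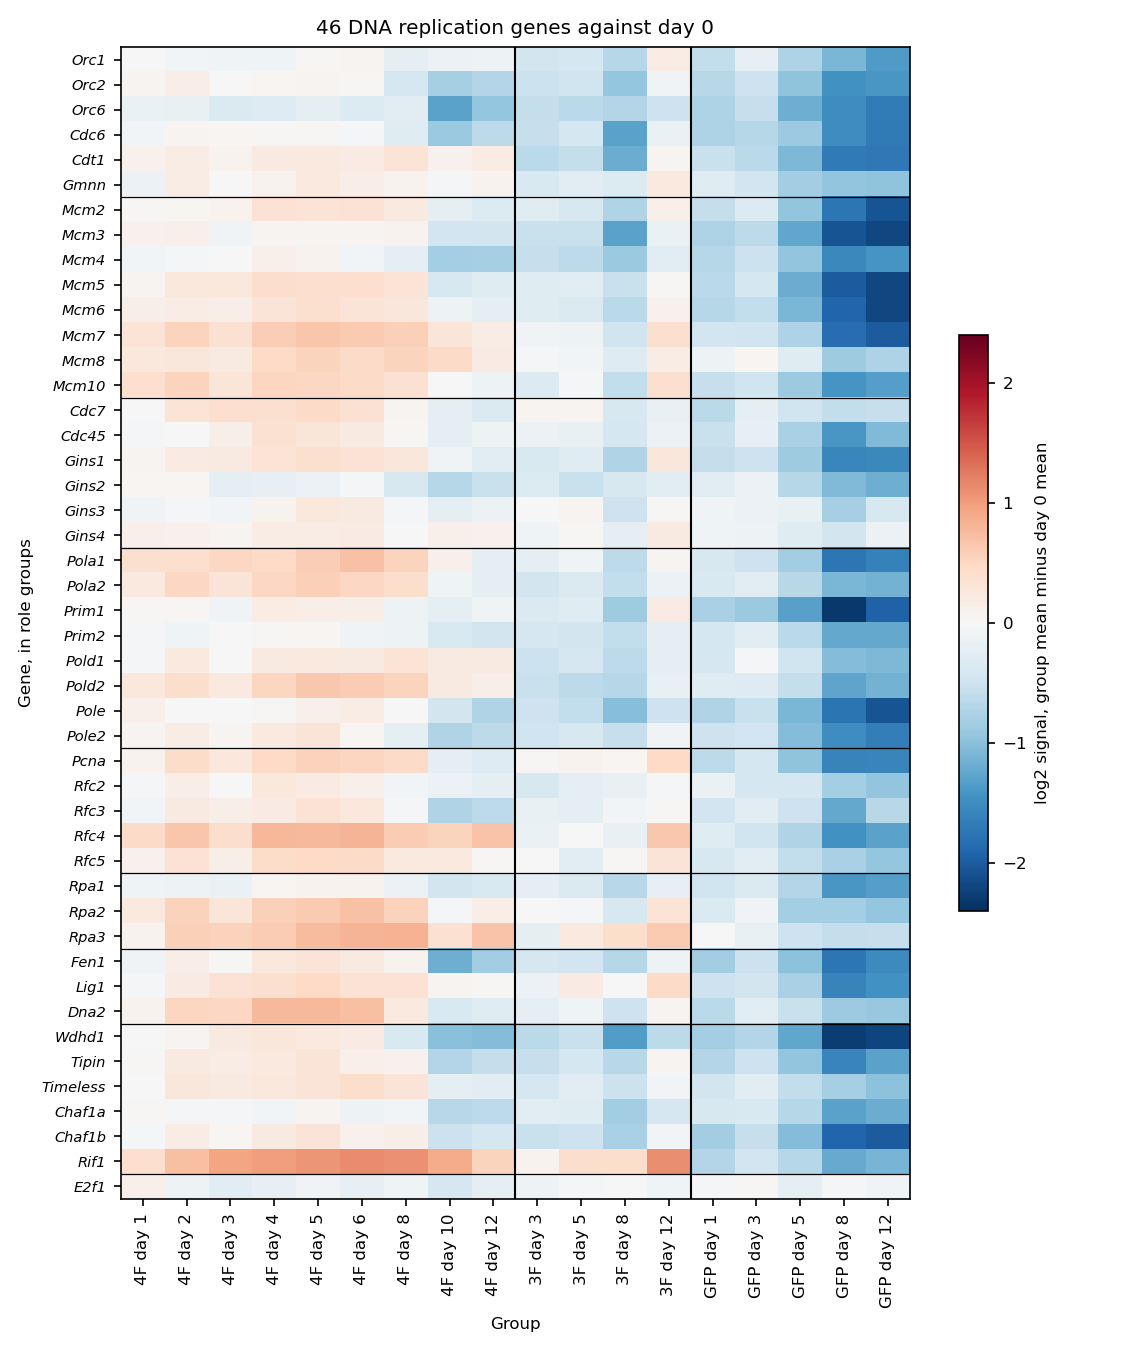
Group mean minus day 0 mean of the log2 signal (colour scale) for each of the 46 genes (rows, in role groups) in each infected group (columns). All rows lie below day 0 in GFP on days 8 and 12, where E2f1 is closest to it (-0.05 and -0.09), and Rif1 reaches 1.13 in 4F on day 6.

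Values below are log2 signals in every array, with replicate 1 named first, and differences are from the limma fit with their SE. In the licensing group (Orc1, Orc2, Orc6, Cdc6, Cdt1, Gmnn) all 6 genes fell in GFP by day 8, with a median of -1.47. Cdt1, which loads the helicase, read 8.58 and 8.5 at day 0 and, in GFP, 7.99 and 8.01 on day 1, 7.98 and 7.84 on day 3, 7.73 and 7.22 on day 5, 6.90 and 6.78 on day 8 and 6.83 on day 12. Cdt1 in 4F read 8.80 and 8.5 on day 1, 9.05 and 8.40 on day 2, 8.62 and 8.64 on day 3, 8.87 and 8.64 on day 4, 9.02 and 8.53 on day 5, 8.97 and 8.51 on day 6, 8.99 and 8.74 on day 8, 8.64 on day 10 and 8.71 on day 12, and in 3F 7.89 on day 3, 7.96 on day 5, 7.35 on day 8 and 8.60 on day 12. Every GFP array of Cdt1 lay below both day 0 arrays and below every 4F array. Cdt1 fell by 1.70 ± 0.22 in GFP on day 8 (adjusted p = 7.6e-05), with a difference of 0.32 ± 0.22 in 4F. Gmnn encodes geminin, the inhibitor of Cdt1, and had the smallest GFP difference of the group. It read 6.64 and 6.34 at day 0 and, in GFP, 6.21 and 6.18 on day 1, 6.08 and 5.98 on day 3, 5.77 and 5.55 on day 5, 5.51 and 5.57 on day 8 and 5.53 on day 12. Gmnn in 4F read 6.53 and 6.16 on day 1, 6.93 and 6.42 on day 2, 6.39 and 6.61 on day 3, 6.56 and 6.61 on day 4, 6.83 and 6.61 on day 5, 6.79 and 6.52 on day 6, 6.81 and 6.34 on day 8, 6.45 on day 10 and 6.57 on day 12, and in 3F 6.13 on day 3, 6.21 on day 5, 6.16 on day 8 and 6.72 on day 12. All GFP arrays lay below day 0, and every 4F group overlapped it. Gmnn fell by 0.95 ± 0.18 in GFP on day 8 (adjusted p = 0.0016). Orc2, of the origin recognition complex, read 8.63 and 8.58 at day 0 and, in GFP, 7.91 and 7.98 on day 1, 7.98 and 8.24 on day 3, 7.65 and 7.63 on day 5, 7.12 and 7.20 on day 8 and 7.21 on day 12. Orc2 in 4F read 8.79 and 8.57 on day 1, 8.97 and 8.53 on day 2, 8.53 and 8.71 on day 3, 8.68 and 8.61 on day 4, 8.76 and 8.58 on day 5, 8.62 and 8.62 on day 6, 8.08 and 8.30 on day 8, 7.81 on day 10 and 7.89 on day 12, and in 3F 8.09 on day 3, 8.12 on day 5, 7.68 on day 8 and 8.51 on day 12. From day 8 all 4F arrays of Orc2 lay below day 0. Orc2 fell by 0.41 ± 0.13 in 4F on day 8 (adjusted p = 0.048, limma), the one gene called lower in that arm, and fell by 1.45 ± 0.13 in GFP. Quantile normalization (-0.35) or a trended prior (-0.41) each ended the 4F call. Cdc6, which works beside Cdt1, was the one gene called in GFP from day 1, with differences of -0.75, -0.68, -0.87 and -1.5 on days 1, 3, 5 and 8.

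The MCM group (Mcm2 to Mcm7 of the helicase, with Mcm8 and Mcm10) had the lowest GFP median of the role groups, -1.78 on day 8, and all 8 fell. Mcm3 read 9.21 and 9.32 at day 0 and, in GFP, 8.32 and 8.73 on day 1, 8.58 and 8.69 on day 3, 8.34 and 7.68 on day 5, 7.16 and 7.23 on day 8 and 7.07 on day 12. Mcm3 in 4F read 9.39 and 9.35 on day 1, 9.64 and 9.12 on day 2, 9.0 and 9.35 on day 3, 9.34 and 9.33 on day 4, 9.43 and 9.24 on day 5, 9.46 and 9.22 on day 6, 9.25 and 9.44 on day 8, 8.80 on day 10 and 8.82 on day 12, and in 3F 8.72 on day 3, 8.74 on day 5, 7.97 on day 8 and 9.11 on day 12. Every GFP and every 3F array of Mcm3 lay below day 0, as did the 4F arrays of days 10 and 12. Mcm3 fell by 2.07 ± 0.20 in GFP on day 8, a 4.2-fold lower signal (adjusted p = 7.7e-06), against 0.08 ± 0.20 in 4F. Mcm7 read 9.60 and 9.51 at day 0 and, in GFP, 9.05 and 9.13 on day 1, 9.11 and 9.05 on day 3, 9.01 and 8.60 on day 5, 7.61 and 7.86 on day 8 and 7.57 on day 12. Mcm7 in 4F read 9.98 and 9.78 on day 1, 10.28 and 9.89 on day 2, 9.90 and 9.96 on day 3, 10.23 and 10.07 on day 4, 10.35 and 10.07 on day 5, 10.39 and 9.97 on day 6, 10.21 and 10.05 on day 8, 9.85 on day 10 and 9.73 on day 12, and in 3F 9.47 on day 3, 9.43 on day 5, 9.08 on day 8 and 9.94 on day 12. All 16 4F arrays of Mcm7 lay above both day 0 arrays and all 9 GFP arrays below. Mcm7 rose in 4F on days 4, 5, 6 and 8, and it rose by 0.57 ± 0.17 on day 8 (adjusted p = 0.029), while it fell by 1.82 ± 0.17 in GFP (adjusted p = 5.0e-06). Mcm8, a helicase outside MCM2-7, read 6.43 and 6.67 at day 0 and, in GFP, 6.28 and 6.55 on day 1, 6.68 and 6.52 on day 3, 6.54 and 5.95 on day 5, 5.33 and 6.05 on day 8 and 5.80 on day 12. Mcm8 in 4F read 6.78 and 6.82 on day 1, 7.04 and 6.60 on day 2, 6.71 and 6.82 on day 3, 7.0 and 7.05 on day 4, 7.18 and 6.98 on day 5, 7.19 and 6.81 on day 6, 7.20 and 6.97 on day 8, 7.0 on day 10 and 6.75 on day 12, and in 3F 6.51 on day 3, 6.48 on day 5, 6.23 on day 8 and 6.73 on day 12. Its GFP arrays overlapped day 0 on days 1, 3 and 5 and lay below it on days 8 and 12. Mcm8 fell by 0.86 ± 0.23 in GFP on day 8 (adjusted p = 0.014). Mcm10, which helps to fire origins, rose in 4F on days 2, 4 and 5, by 0.53, 0.51 and 0.49.

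All 6 helicase activation genes (Cdc7, Cdc45 and Gins1 to Gins4) fell in GFP by day 8, with a median of -0.93. Gins1, of the GINS complex, read 7.30 and 7.57 at day 0 and, in GFP, 6.46 and 7.26 on day 1, 6.85 and 7.04 on day 3, 6.88 and 6.28 on day 5, 5.76 and 5.98 on day 8 and 5.89 on day 12. Gins1 in 4F read 7.37 and 7.62 on day 1, 7.65 and 7.62 on day 2, 7.31 and 7.99 on day 3, 7.38 and 8.13 on day 4, 7.70 and 7.94 on day 5, 7.65 and 7.90 on day 6, 7.52 and 7.88 on day 8, 7.35 on day 10 and 7.17 on day 12, and in 3F 7.06 on day 3, 7.13 on day 5, 6.72 on day 8 and 7.70 on day 12. Every GFP array lay below day 0, and 4F lay above it on days 2, 5 and 6. Gins1 fell by 1.56 ± 0.30 in GFP on day 8 (adjusted p = 0.0013). Gins4 read 8.24 and 8.31 at day 0 and, in GFP, 8.03 and 8.31 on day 1, 8.08 and 8.24 on day 3, 8.02 and 7.95 on day 5, 7.73 and 7.94 on day 8 and 8.12 on day 12. Gins4 in 4F read 8.37 and 8.44 on day 1, 8.40 and 8.38 on day 2, 8.32 and 8.37 on day 3, 8.37 and 8.56 on day 4, 8.38 and 8.53 on day 5, 8.45 and 8.51 on day 6, 8.25 and 8.30 on day 8, 8.39 on day 10 and 8.38 on day 12, and in 3F 8.18 on day 3, 8.30 on day 5, 8.04 on day 8 and 8.5 on day 12. All 31 arrays of Gins4 lay between 7.73 and 8.56, and GFP left day 0 from day 5. Gins4 fell by 0.44 ± 0.10 in GFP on day 8 (adjusted p = 0.0058). Gins2 read 8.09 and 8.10 at day 0 and, in GFP, 7.88 and 7.81 on day 1, 7.74 and 8.14 on day 3, 7.5 and 7.30 on day 5, 6.92 and 7.14 on day 8 and 6.91 on day 12. Gins2 in 4F read 8.24 and 8.03 on day 1, 8.24 and 8.03 on day 2, 7.89 and 7.87 on day 3, 7.85 and 7.96 on day 4, 8.11 and 7.80 on day 5, 8.16 and 7.92 on day 6, 7.81 and 7.62 on day 8, 7.42 on day 10 and 7.55 on day 12, and in 3F 7.76 on day 3, 7.55 on day 5, 7.71 on day 8 and 7.82 on day 12. The 4F arrays of Gins2 lay below day 0 on days 3, 4, 8, 10 and 12. Its day 8 difference of -0.38 ± 0.14 did not pass the test. The 4 GINS subunits act as 1 complex, and their GFP differences on day 8 were -1.56, -1.06, -0.80 and -0.44 for Gins1, Gins2, Gins3 and Gins4.

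Primase and the polymerases (Pola1, Pola2, Prim1, Prim2, Pold1, Pold2, Pole, Pole2) all fell in GFP by day 8, with a median of -1.38. Prim1, which makes the RNA primer of each new strand, read 8.60 and 8.74 at day 0 and, in GFP, 7.63 and 8.17 on day 1, 7.34 and 8.22 on day 3, 7.51 and 7.24 on day 5, 5.86 and 6.85 on day 8 and 6.73 on day 12. Prim1 in 4F read 8.63 and 8.76 on day 1, 8.76 and 8.63 on day 2, 8.36 and 8.80 on day 3, 8.65 and 9.05 on day 4, 8.72 and 8.94 on day 5, 8.68 and 8.95 on day 6, 8.32 and 8.75 on day 8, 8.43 on day 10 and 8.57 on day 12, and in 3F 8.32 on day 3, 8.38 on day 5, 7.82 on day 8 and 8.87 on day 12. The GFP arrays all lay below day 0, and 4F overlapped it through day 8. Prim1 fell by 2.31 ± 0.32 in GFP on day 8, 4.96-fold (adjusted p = 0.0001), the largest difference of the 46, against -0.13 ± 0.32 in 4F. Pold1, the catalytic subunit of polymerase delta, read 7.72 and 7.66 at day 0 and, in GFP, 7.33 and 7.22 on day 1, 7.92 and 7.37 on day 3, 7.39 and 7.02 on day 5, 6.85 and 6.44 on day 8 and 6.61 on day 12. Pold1 in 4F read 7.73 and 7.58 on day 1, 8.24 and 7.59 on day 2, 7.76 and 7.59 on day 3, 8.08 and 7.71 on day 4, 8.17 and 7.69 on day 5, 8.19 and 7.60 on day 6, 8.37 and 7.64 on day 8, 7.89 on day 10 and 7.89 on day 12, and in 3F 7.17 on day 3, 7.28 on day 5, 7.06 on day 8 and 7.48 on day 12. GFP overlapped day 0 on day 3 and lay below it on the other days. Pold1 fell by 1.05 ± 0.29 in GFP on day 8 (adjusted p = 0.016). Pold2, its partner subunit, read 8.54 and 8.59 at day 0 and, in GFP, 8.20 and 8.36 on day 1, 8.31 and 8.19 on day 3, 8.21 and 7.77 on day 5, 7.33 and 7.29 on day 8 and 7.43 on day 12. Pold2 in 4F read 8.98 and 8.64 on day 1, 9.27 and 8.73 on day 2, 8.94 and 8.66 on day 3, 9.26 and 8.90 on day 4, 9.41 and 9.01 on day 5, 9.44 and 8.88 on day 6, 9.13 and 9.09 on day 8, 8.78 on day 10 and 8.71 on day 12, and in 3F 8.04 on day 3, 7.95 on day 5, 7.88 on day 8 and 8.39 on day 12. Every 4F array of Pold2 lay above both day 0 arrays, and every 3F and GFP array below. The 4F difference of Pold2 on day 8, 0.54 ± 0.22, did not pass the test, and in GFP it fell by 1.26 ± 0.22 (adjusted p = 0.00068).

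The clamp Pcna and the loader subunits Rfc2 to Rfc5 fell in GFP by day 8, 5 of 5, with a median of -1.22. Pcna read 10.64 and 10.33 at day 0 and, in GFP, 9.81 and 9.91 on day 1, 9.96 and 10.18 on day 3, 9.70 and 9.36 on day 5, 8.66 and 9.11 on day 8 and 8.89 on day 12. Pcna in 4F read 10.64 and 10.48 on day 1, 11.14 and 10.70 on day 2, 10.68 and 10.80 on day 3, 10.87 and 11.05 on day 4, 11.16 and 10.94 on day 5, 11.04 and 10.95 on day 6, 10.94 and 10.94 on day 8, 10.28 on day 10 and 10.18 on day 12, and in 3F 10.52 on day 3, 10.57 on day 5, 10.53 on day 8 and 10.96 on day 12. The 4F arrays of Pcna lay above day 0 on days 2 to 8 and below it on days 10 and 12. Pcna fell by 1.60 ± 0.17 in GFP on day 8 (adjusted p = 1.5e-05) and rose by 0.56 ± 0.17 in 4F on day 5 (adjusted p = 0.04). Its unused row followed the used one (8.65 to 11.17, against 8.66 to 11.16), so both may read the same or a near-identical transcript. Rfc5 read 8.89 and 8.82 at day 0 and, in GFP, 8.38 and 8.55 on day 1, 8.66 and 8.51 on day 3, 8.28 and 8.22 on day 5, 8.05 and 8.11 on day 8 and 7.93 on day 12. Rfc5 in 4F read 9.07 and 8.85 on day 1, 9.50 and 8.92 on day 2, 9.10 and 8.90 on day 3, 9.28 and 9.31 on day 4, 9.34 and 9.33 on day 5, 9.44 and 9.20 on day 6, 9.10 and 9.09 on day 8, 9.09 on day 10 and 8.88 on day 12, and in 3F 8.87 on day 3, 8.61 on day 5, 8.88 on day 8 and 9.16 on day 12. All GFP arrays lay below day 0. Rfc5 fell by 0.78 ± 0.14 in GFP on day 8 (adjusted p = 0.0012) and rose in 4F on days 5 and 6, by 0.48 and 0.46. Rfc4 read 8.59 and 8.97 at day 0 and, in GFP, 8.32 and 8.66 on day 1, 8.18 and 8.42 on day 3, 8.29 and 7.80 on day 5, 7.03 and 7.63 on day 8 and 7.5 on day 12. Rfc4 in 4F read 9.20 and 9.25 on day 1, 9.60 and 9.26 on day 2, 9.20 and 9.19 on day 3, 9.40 and 9.73 on day 4, 9.55 and 9.55 on day 5, 9.53 and 9.64 on day 6, 9.23 and 9.54 on day 8, 9.32 on day 10 and 9.46 on day 12, and in 3F 8.61 on day 3, 8.77 on day 5, 8.60 on day 8 and 9.42 on day 12. All 16 4F arrays of Rfc4 exceeded both day 0 arrays. Rfc4 rose in 4F on days 4, 5 and 6, by 0.79, 0.77 and 0.81. On day 8 its difference of 0.61 ± 0.21 did not pass, and in GFP it fell by 1.45 ± 0.21 (adjusted p = 0.00019).

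Of the trimer that coats unwound single-stranded DNA, Rpa2 and Rpa3 rose in 4F on day 8, and all 3 subunits fell in GFP. Rpa1, the large subunit, read 8.89 and 9.11 at day 0 and, in GFP, 8.31 and 8.73 on day 1, 8.44 and 8.86 on day 3, 8.37 and 8.21 on day 5, 7.33 and 7.86 on day 8 and 7.68 on day 12. Rpa1 in 4F read 8.86 and 8.95 on day 1, 9.08 and 8.69 on day 2, 8.78 and 8.90 on day 3, 9.09 and 9.0 on day 4, 9.12 and 9.06 on day 5, 9.08 and 9.09 on day 6, 8.82 and 8.89 on day 8, 8.56 on day 10 and 8.63 on day 12, and in 3F 8.79 on day 3, 8.66 on day 5, 8.33 on day 8 and 8.81 on day 12. Its 4F arrays overlapped day 0 through day 8 and lay below it on days 10 and 12. Rpa1 fell by 1.40 ± 0.18 in GFP on day 8 (adjusted p = 7.2e-05), with -0.14 ± 0.18 in 4F. Rpa3, the small subunit, read 7.37 and 7.0 at day 0 and, in GFP, 7.17 and 7.20 on day 1, 6.99 and 7.03 on day 3, 6.56 and 6.83 on day 5, 6.54 and 6.70 on day 8 and 6.62 on day 12. Rpa3 in 4F read 7.38 and 7.18 on day 1, 7.91 and 7.62 on day 2, 7.86 and 7.61 on day 3, 7.85 and 7.74 on day 4, 8.05 and 7.81 on day 5, 8.15 and 7.85 on day 6, 8.08 and 7.96 on day 8, 7.55 on day 10 and 7.86 on day 12, and in 3F 6.96 on day 3, 7.43 on day 5, 7.62 on day 8 and 7.80 on day 12. From day 2 all 4F arrays of Rpa3 lay above both day 0 arrays. Rpa3 rose in 4F on each tested day from day 2, and it rose by 0.83 ± 0.15 on day 8 (adjusted p = 0.0013), while it fell by 0.57 ± 0.15 in GFP (adjusted p = 0.014). The mean of both Rpa3 rows (0.40) or quantile normalization (0.47) ended its 4F call of day 3. Rpa2, the middle subunit, rose on days 2, 4, 5, 6 and 8, and it rose by 0.56 ± 0.16 on day 8.

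Fen1 trims the flaps of Okazaki fragments, Dna2 cuts long flaps and Lig1 seals the nick, and all 3 fell in GFP by day 8, with a median of -1.60. Fen1 read 8.19 and 8.08 at day 0 and, in GFP, 7.25 and 7.35 on day 1, 7.49 and 7.77 on day 3, 7.29 and 7.01 on day 5, 6.23 and 6.59 on day 8 and 6.61 on day 12. Fen1 in 4F read 8.11 and 7.99 on day 1, 8.61 and 7.96 on day 2, 8.14 and 8.19 on day 3, 8.44 and 8.36 on day 4, 8.55 and 8.33 on day 5, 8.45 and 8.27 on day 6, 8.55 and 7.87 on day 8, 6.97 on day 10 and 7.30 on day 12, and in 3F 7.74 on day 3, 7.67 on day 5, 7.46 on day 8 and 8.01 on day 12. The day 10 array was the lowest of the 4F arm. Fen1 fell by 1.73 ± 0.22 in GFP on day 8 (adjusted p = 5.5e-05). Lig1 read 8.47 and 8.5 at day 0 and, in GFP, 8.00 and 8.01 on day 1, 8.10 and 7.98 on day 3, 7.98 and 7.45 on day 5, 6.71 and 7.06 on day 8 and 7.03 on day 12. Lig1 in 4F read 8.51 and 8.40 on day 1, 8.87 and 8.5 on day 2, 8.76 and 8.91 on day 3, 9.05 and 8.70 on day 4, 9.16 and 8.75 on day 5, 8.97 and 8.68 on day 6, 8.90 and 8.78 on day 8, 8.56 on day 10 and 8.52 on day 12, and in 3F 8.34 on day 3, 8.69 on day 5, 8.49 on day 8 and 8.95 on day 12. No GFP array of Lig1 reached day 0, and 3F lay above it on days 5 and 12. Lig1 fell by 1.60 ± 0.19 in GFP on day 8 (adjusted p = 3.1e-05), with 0.35 ± 0.19 in 4F. Dna2 read 6.78 and 6.60 at day 0 and, in GFP, 6.06 and 6.01 on day 1, 6.44 and 6.44 on day 3, 6.35 and 5.96 on day 5, 5.77 and 5.87 on day 8 and 5.78 on day 12. Dna2 in 4F read 6.82 and 6.71 on day 1, 7.53 and 6.87 on day 2, 7.16 and 7.19 on day 3, 7.54 and 7.39 on day 4, 7.69 and 7.23 on day 5, 7.58 and 7.26 on day 6, 7.09 and 6.76 on day 8, 6.32 on day 10 and 6.39 on day 12, and in 3F 6.46 on day 3, 6.59 on day 5, 6.18 on day 8 and 6.75 on day 12. Its 4F arrays exceeded day 0 on days 2 to 6 and lay below it on days 10 and 12. Dna2 rose in 4F on days 4, 5 and 6, by 0.78, 0.77 and 0.73, and fell by 0.87 ± 0.20 in GFP on day 8 (adjusted p = 0.0055).

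Among the fork protection and chromatin assembly genes (Wdhd1, Timeless, Tipin, Rif1, Chaf1a, Chaf1b) all 6 fell in GFP by day 8, with a median of -1.44, and Rif1 rose in 4F. Wdhd1, which ties polymerase alpha to the helicase, read 8.29 and 8.40 at day 0 and, in GFP, 7.5 and 7.56 on day 1, 7.58 and 7.71 on day 3, 7.36 and 6.84 on day 5, 6.01 and 6.13 on day 8 and 6.14 on day 12. Wdhd1 in 4F read 8.34 and 8.36 on day 1, 8.58 and 8.25 on day 2, 8.44 and 8.69 on day 3, 8.61 and 8.63 on day 4, 8.72 and 8.45 on day 5, 8.59 and 8.48 on day 6, 8.21 and 7.76 on day 8, 7.33 on day 10 and 7.30 on day 12, and in 3F 7.71 on day 3, 7.81 on day 5, 7.01 on day 8 and 7.72 on day 12. The 4F arrays of Wdhd1 lay above day 0 on days 3 to 6 and below it from day 8. Wdhd1 fell by 2.28 ± 0.17 in GFP on day 8, 4.86-fold (adjusted p = 1.6e-06), with -0.36 ± 0.17 in 4F. Timeless, of the fork protection complex, read 7.23 and 7.10 at day 0 and, in GFP, 6.82 and 6.63 on day 1, 7.20 and 6.58 on day 3, 6.82 and 6.32 on day 5, 6.54 and 6.18 on day 8 and 6.17 on day 12. Timeless in 4F read 7.30 and 7.06 on day 1, 7.71 and 7.15 on day 2, 7.5 and 7.25 on day 3, 7.51 and 7.34 on day 4, 7.56 and 7.40 on day 5, 7.81 and 7.36 on day 6, 7.71 and 7.22 on day 8, 6.96 on day 10 and 6.90 on day 12, and in 3F 6.74 on day 3, 6.90 on day 5, 6.64 on day 8 and 7.11 on day 12. GFP overlapped day 0 on day 3 and lay below it on the other days. Timeless fell by 0.80 ± 0.25 in GFP on day 8 (adjusted p = 0.032), while Tipin, its partner, fell by 1.58 ± 0.20. Rif1, which times origin firing, read 6.91 and 7.12 at day 0 and, in GFP, 6.48 and 6.14 on day 1, 6.59 and 6.52 on day 3, 6.40 and 6.26 on day 5, 5.72 and 5.90 on day 8 and 5.90 on day 12. Rif1 in 4F read 7.48 and 7.38 on day 1, 8.03 and 7.46 on day 2, 8.04 and 7.89 on day 3, 8.20 and 7.82 on day 4, 8.27 and 7.87 on day 5, 7.97 and 8.33 on day 6, 8.06 and 8.15 on day 8, 7.90 on day 10 and 7.54 on day 12, and in 3F 7.11 on day 3, 7.45 on day 5, 7.44 on day 8 and 8.13 on day 12. Every 4F array exceeded both day 0 arrays, and every GFP array lay below them. Rif1 rose in 4F on days 2, 3, 4, 5, 6 and 8, by 0.73, 0.95, 1.00, 1.05, 1.13 and 1.09, and fell by 1.21 ± 0.19 in GFP on day 8 (adjusted p = 0.00035). Chaf1a, of the chromatin assembly factor, fell by 1.29 ± 0.17 and Chaf1b fell by 1.90 ± 0.19 in GFP on day 8.

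E2f1, a transcription factor that drives many of these genes, did not pass any test. It read 7.62 and 7.57 at day 0 and, in GFP, 7.42 and 7.71 on day 1, 7.70 and 7.55 on day 3, 7.45 and 7.31 on day 5, 7.62 and 7.47 on day 8 and 7.5 on day 12. E2f1 in 4F read 7.72 and 7.70 on day 1, 7.54 and 7.38 on day 2, 7.34 and 7.29 on day 3, 7.52 and 7.28 on day 4, 7.63 and 7.39 on day 5, 7.61 and 7.17 on day 6, 7.67 and 7.29 on day 8, 7.18 on day 10 and 7.36 on day 12, and in 3F 7.47 on day 3, 7.56 on day 5, 7.59 on day 8 and 7.49 on day 12. All 31 arrays of E2f1 lay between 7.17 and 7.72, and 4F lay below GFP on days 3 and 12 and overlapped it on days 1, 5 and 8. Its differences on day 8 were -0.05 ± 0.15 in GFP and -0.11 ± 0.15 in 4F.

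**Figure D3:**
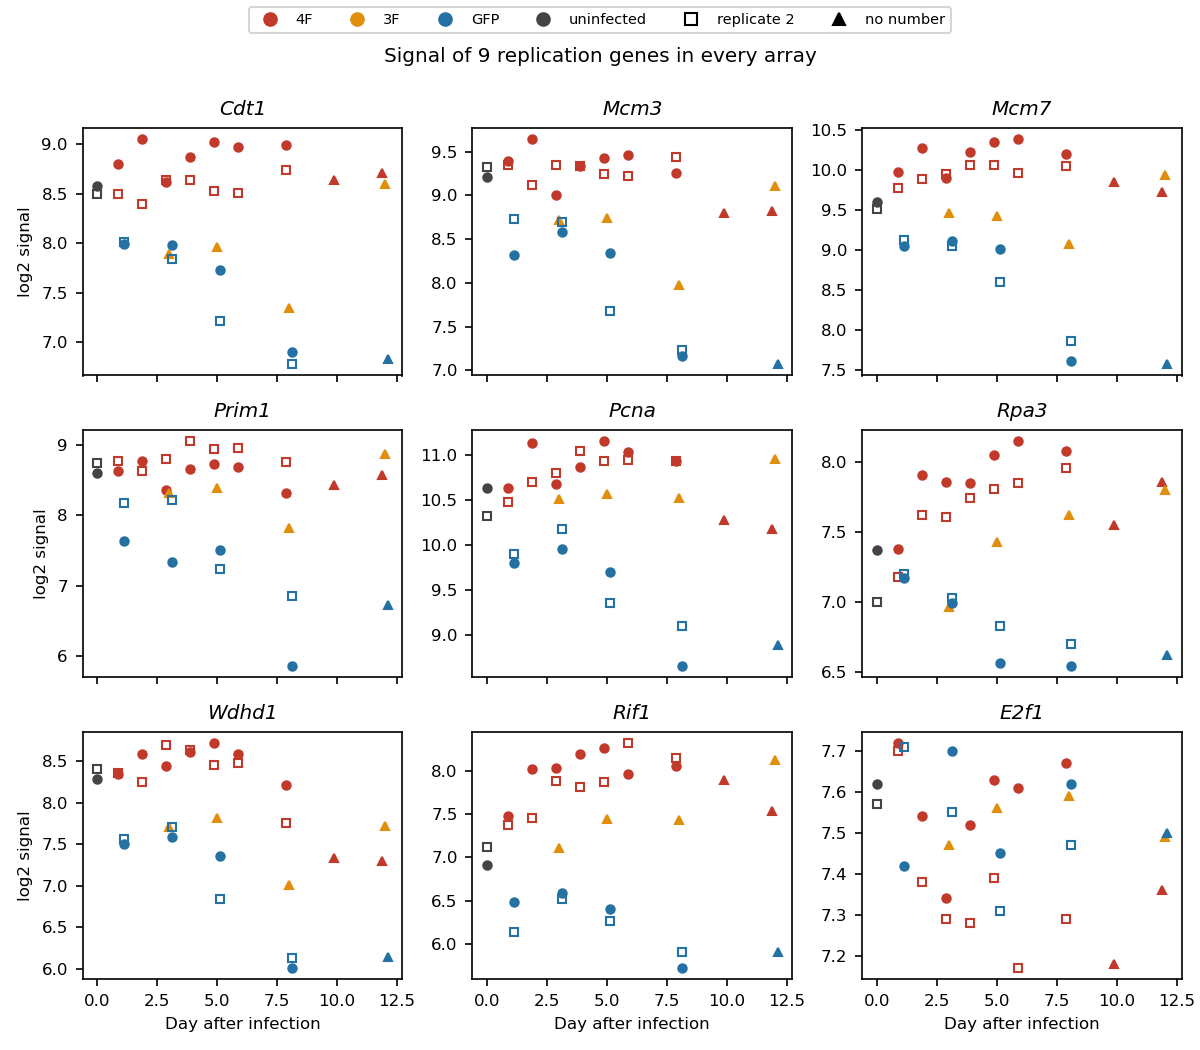
log2 signal (y) of 9 genes in every array by day (x), each panel on its own scale. Filled circles are replicate 1, open squares replicate 2 and triangles arrays with no number, coloured by arm. In GFP on day 8 Prim1, Wdhd1 and Mcm3 lie 2.31, 2.28 and 2.07 below day 0 on average, and in 4F Rif1 lies 1.09 above it, while E2f1 stays between 7.17 and 7.72.

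Against day 0, calls in GFP were few until day 5 and then took nearly the whole group. A call means an adjusted p under 0.05 by limma after Benjamini-Hochberg adjustment over 19938 genes. On day 1 Cdc6 was the 1 gene of the 46 called lower, and 0.0502% of all genes were. On day 3 it was again Cdc6 alone, with 0.326% of all genes. On day 5, 33 were called lower, against 4.83% of all genes, and on day 8, 45, against 11.2%. The day 1 differences were largest for Chaf1b, Fen1 and Wdhd1 (-0.84, -0.84, -0.81) and smallest for Rpa3, E2f1 and Gins3 (0.00, -0.03, -0.08). On day 3 Prim1, Wdhd1 and Cdc6 led with -0.89, -0.70 and -0.68, with E2f1, Pold1 and Mcm8 at 0.03, -0.04 and 0.05. Prim1, Mcm3 and Wdhd1 led on day 5 with -1.30, -1.25 and -1.25, with Gins3, E2f1 and Gins4 at -0.18, -0.21 and -0.29. On day 8 Prim1, Wdhd1 and Mcm3 led, and E2f1, Gins4 and Rpa3 were smallest with -0.05, -0.44 and -0.57. On days 1 and 3 alike, 40 of 46 had both GFP arrays below both day 0 arrays, as had 18.5% and 19.4% of all genes, and 30 and 21 had an unadjusted p under 0.05. With the replicate set as a term, 3 genes were called lower on each of these days. Without either day 0 array or replicate 1 of the day, the counts of days 1 and 3 were 0, and without replicate 2 they were 2. The day 5 count was 9 without GFP day 5 replicate 2, 10 without day 0 replicate 1 and 19 without day 0 replicate 2, and the day 8 count was 40 to 42 without any 1 of its 4 arrays.

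Within the GFP arm the signal fell further between days 1 and 8, with a median step of -0.85 and 35 genes called lower, against 6.06% of all genes. Prim1, Wdhd1 and Mcm7 differed most (-1.54, -1.46, -1.36), and E2f1, Cdc7 and Dna2 least (-0.02, 0.05, -0.22). The median step was 0.12 from day 1 to day 3, -0.39 from day 3 to day 5 and -0.61 from day 5 to day 8, with 45 of 46 genes lower in each of the later steps. The single day 12 array stood level with day 8, with 23 genes lower and 23 higher. How many of all genes fell in each of these steps was not counted. The count of 35 was 20 without GFP day 8 replicate 1 and 21 without GFP day 1 replicate 2.

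In 4F, 9 genes were called above day 0 on some day, Orc2 fell on day 8, and the other 36 passed the test on no day. The share of all genes called on any of the tested days was not counted, so these pooled counts are a description. On day 1 limma called 0 of the 46 in either direction, with or without the replicate set as a term, 2 had an unadjusted p under 0.05, and 0.838% of all genes were called. The genes called higher numbered 4, 2, 7, 9, 7 and 4 on days 2, 3, 4, 5, 6 and 8, against 4.44%, 4.6%, 4.74%, 6.47%, 8.14% and 7.39% of all genes. As shares of the 46 these are 8.7%, 4.35%, 15.2%, 19.6%, 15.2% and 8.7%, so on days 3 and 8 the share lay near that of all genes and is no result about these genes. Orc2 was the 1 gene called lower, on day 8, when 8.51% of all genes were. On days 2 and 8, 16 of 46 had both 4F arrays above both day 0 arrays, as had 22.4% and 23.0% of all genes. On days 3, 4, 5 and 6 these numbered 24, 30, 30 and 29, against 22.5%, 24.1%, 25.2% and 25.4%. Both lay below day 0 for 1, 4, 3, 1, 2 and 8 on days 2 to 6 and 8, against 23.6% to 27.3%. An unadjusted p under 0.05, in either direction, was reached by 10, 6, 11, 17, 12 and 12 on these days. In all, 9 genes were called higher on some day, namely Rif1 and Rpa3 on 6 days, Rpa2 on 5, Mcm7 on 4, Mcm10, Rfc4 and Dna2 on 3, Rfc5 on 2 and Pcna on 1. On day 1 Rfc4, Rif1 and Mcm10 differed most (0.45, 0.41, 0.40) and Wdhd1, Cdc7 and Orc1 least (0.00, 0.01, -0.01). Rif1 led on each later day. Behind it stood Rfc4 and Rpa3 on day 2 (0.66, 0.58), Rpa3 and Dna2 on day 3 (0.55, 0.49), Rfc4 and Dna2 on days 4 and 5, and Rpa3 and Rfc4 on days 6 and 8. The smallest were Cdc45, Pole and Prim1 on day 2 (0.00, -0.01, 0.03) and Prim2, Pole and Gmnn on day 3 (0.00, 0.00, 0.01). On day 4 they were Cdc6, Prim2 and Pole (0.02, 0.02, 0.03), and on day 5 Orc1, Cdc6 and Prim2 (0.02, 0.02, 0.05). On day 6 they were Orc2, Cdc6 and Pole2 (0.02, -0.02, 0.04), and on day 8 Pole, Gins4 and Cdc45 (0.00, -0.01, 0.02). With the set as a term, 8 genes were called on day 2 and 11 on day 6. Leaving out 1 array moved most of these counts by over 1.5 times. Without day 0 replicate 1 the counts on days 2, 3, 4, 5, 6 and 8 were 1, 1, 2, 4, 3 and 2, and without day 0 replicate 2 they were 0, 1, 2, 2, 4 and 2, Orc2 included. Without replicate 1 of the day they were 0, 0, 1, 2, 2 and 2, and without replicate 2 of the day 7, 2, 1, 4, 7 and 3.

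Within the 4F arm, limma called 0 of the 46 genes between days 1 and 3 and 0 between days 3 and 8, against 2.54% and 2.85% of all genes. At an unadjusted p under 0.05 there were 4 and 3, and with the set as a term 0 and 1. Rif1, Rpa3 and Dna2 differed most from day 1 to day 3 (0.54, 0.46, 0.41), and Gins3, Pole2 and Pold2 least (0.01, -0.01, -0.01). From day 3 to day 8 Wdhd1, Orc2 and Cdc6 differed most (-0.58, -0.42, -0.34), and Pole, Lig1 and Rpa1 least (0.00, 0.00, 0.02). Without 4F day 8 replicate 1 the later count was 1.

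The single 4F arrays of days 10 and 12 stood lower than day 8, and no test is given for them. From day 8 to day 10, 43 of 46 genes were lower, with a median step of -0.38 and a range from -1.25 for Fen1 to 0.12 for Gins4, while day 12 stood level with day 10 (median 0.02). The share of all genes that were lower on day 10 than on day 8 was not counted. Past 2-fold below day 0 lay Orc6 (-1.28), Fen1 (-1.17) and Wdhd1 (-1.01) on day 10, when 4.29% of all genes did, and Wdhd1 (-1.04) on day 12, when 3.97% did. Counts this small are no result about the 46. The role medians were lowest for fork protection and chromatin assembly (-0.59) and licensing (-0.47) on day 10. Rif1 was 0.89 above day 0 on day 10, and Rfc4 0.69 on day 12. The mitosis genes of these arrays had medians of 0.14 and 0.02. Both arrays belong to the set with no number, whose part in the step was not tested. In the single GFP array of day 12, 33 genes lay past 2-fold below day 0, against 4.46% of all genes, led by Wdhd1 with -2.21.

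Set against GFP on the same day, 4F held higher signal of the replication genes. On days 1, 3, 5 and 8, 8, 17, 43 and 45 of 46 were called higher in 4F, against 1.42%, 6.28%, 10.5% and 14.5% of all genes. The medians were 0.60, 0.54, 1.23 and 1.40, the last a 2.64-fold higher signal. Averaged over the 4 days, 45 were called higher with a median of 0.93, against 18.8% of all genes. Cdc6, Chaf1b, Mcm10, Mcm3, Mcm7, Orc2, Rif1 and Wdhd1 were the 8 called on day 1. Rif1, Mcm10 and Mcm3 differed most then (1.12, 0.95, 0.85), and Gins3, Rpa3 and Rfc2 least (0.01, 0.09, 0.13). On day 3 Rif1, Pola1 and Wdhd1 led (1.41, 0.98, 0.92), with Pold1, Gins2 and Gins3 at 0.03, -0.06 and 0.07. On day 5 Rif1, Mcm5 and Pcna led (1.74, 1.60, 1.52), and Gins4 (0.47) was called, while E2f1 (0.13 ± 0.15), Gins3 (0.43 ± 0.16) and Pold1 (0.73 ± 0.29) were not. On day 8 Mcm7 (2.39 ± 0.17, 5.24-fold, adjusted p = 1.8e-07), Mcm5 (2.31 ± 0.24) and Rif1 (2.30 ± 0.19) differed most. E2f1 (-0.06 ± 0.15), Gins4 (0.44 ± 0.10) and Cdc7 (0.67 ± 0.17) differed least. Over the mean of days Rif1, Pola1 and Mcm7 led (1.64, 1.36, 1.36), with E2f1, Gins3 and Gins4 at -0.02, 0.31 and 0.33. With the set as a term, 20 genes were called on day 1 and 26 on day 3. The day 1 count was 0 without 4F or GFP replicate 1, 1 without 4F replicate 2 and 5 without GFP replicate 2. The day 3 count was 7 and 6 without 4F replicates 1 and 2 and 5 without GFP replicate 1.

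**Figure D4:**
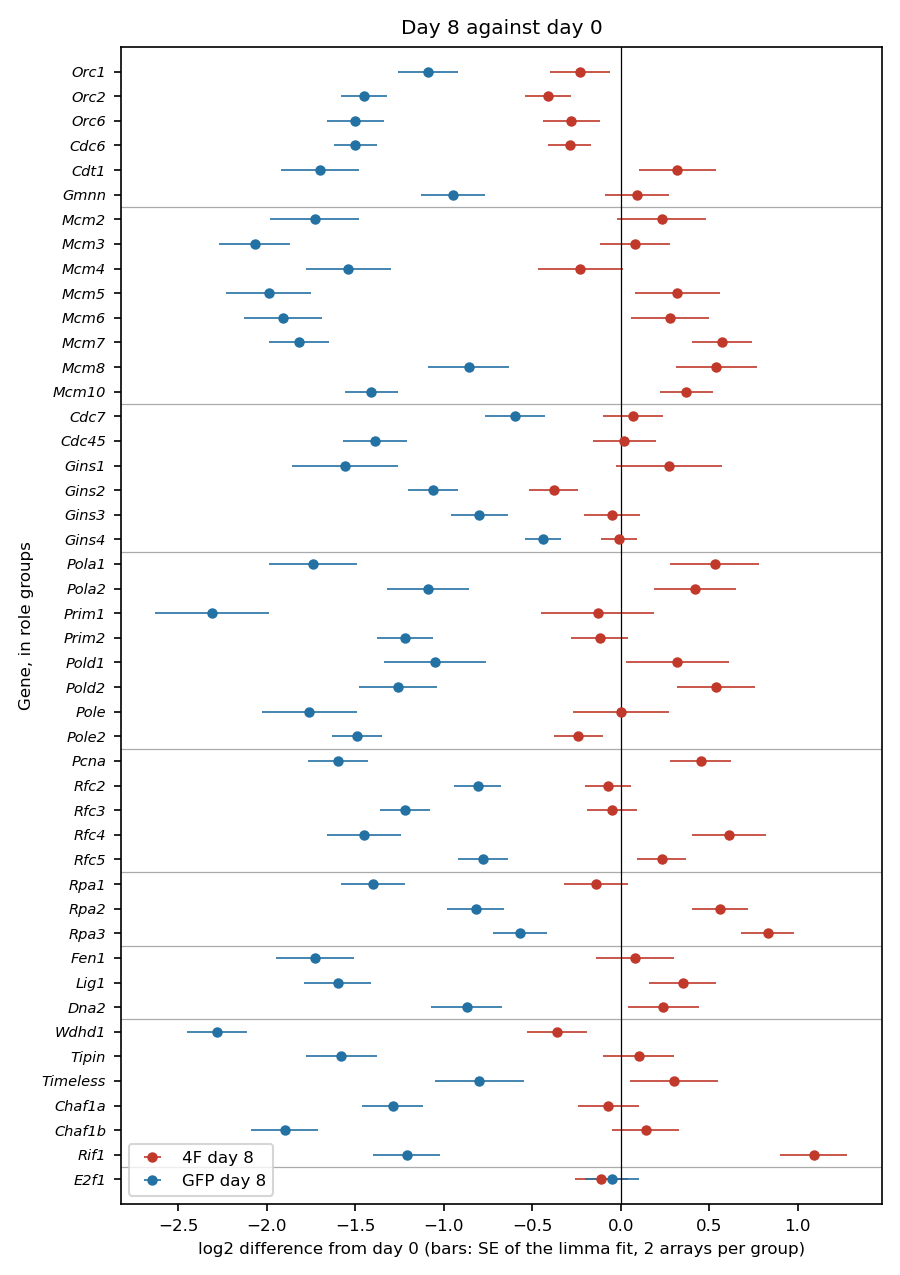
log2 difference from day 0 on day 8 (x) in 4F and GFP for each of the 46 genes (y, in role groups), with bars of 1 SE from limma and 2 arrays per group. GFP points run from -2.31 for Prim1 to -0.05 for E2f1, and 4F points from -0.41 for Orc2 to 1.09 for Rif1.

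The growth of the gap was tested as the 4F minus GFP difference of day 8 less that of day 1. It was called for 24 genes, all with a wider gap on day 8, against 3.92% of all genes, with a median of 0.91 over the 46. Mcm7, Mcm5 and Lig1 widened most (1.61 ± 0.24, 1.60 ± 0.33, 1.5 ± 0.27), and Cdc7, Gins4 and E2f1 differed least (0.02, 0.20, -0.21). In the MCM group 6 of 8 were called, in single-strand binding 3 of 3, in fork protection and chromatin assembly 4 of 6, in licensing 2 of 6 (Cdt1, Gmnn) and in helicase activation 1 of 6 (Cdc45). Cdc7, the kinase that fires origins, differed by 0.65 ± 0.17 between the arms on day 1 and by 0.67 ± 0.17 on day 8. The count was 9 without replicate 2 of 4F day 1 or of GFP day 1, 12 without GFP day 8 replicate 1 and 15 without 4F day 8 replicate 1.

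The 3F arm, which lacked c-Myc, mostly lay between the other arms until day 8 and stood at or above 4F on day 12. It has 1 array a day, so each day is a description. All 3F arrays belong to the set with no number, while 4F and GFP on days 3, 5 and 8 belong to the numbered sets. Only on day 12 do the arms share a set. On days 3, 5 and 8 set and arm cannot be told apart, and the part of the set in the change by day 12 was not tested. On days 3, 5, 8 and 12, 29, 44, 45 and 7 of 46 genes lay between the 4F and GFP means, and on day 12, 39 lay at or above 4F. The shares of all genes that did so were not counted, so these counts do not set the 46 apart from other genes. The median 3F minus 4F difference was -0.45, -0.60, -0.75 and 0.28 on these days, and the median 3F minus GFP difference 0.06, 0.52, 0.76 and 1.27. On day 3, 16 genes were at or below GFP. On day 8 Cdt1, Mcm3 and Pold2 lay furthest below 4F (-1.51, -1.38, -1.22), and Pcna, Rif1 and Lig1 furthest above GFP (1.65, 1.64, 1.61). Past 2-fold below day 0 lay 0 genes on days 3 and 5, when 0.848% and 1.52% of all genes did. On day 8 there were 5 (Wdhd1 -1.34, Mcm3 -1.29, Cdc6 -1.29, Cdt1 -1.19, Pole -1.02), against 2.26%, and on day 12 there were 0, against 2.54%. From day 8 to day 12, 45 of 46 were higher, by a median of 0.54 and by 1.25 for Cdt1, and the share of all genes that were higher was not counted. The clamp and loader group stood at a median of -0.07 in 3F on day 8, and licensing at -0.81.

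In the model that adds arm and day over days 3, 5, 8 and 12, the days of 3F serve in place of replicates. It assumes the same arm difference on each day, while the median 3F minus 4F difference was -0.75 on day 8 and 0.28 on day 12. Its SE and adjusted p do not measure the spread between 3F cultures. In this model 3 genes were called lower in 3F than in 4F, against 3.87% of all genes, a count too small to be a result about the 46. The 3 were Pold2 (-0.91 ± 0.20, adjusted p = 0.013), Pola2 (-0.69 ± 0.18, adjusted p = 0.029) and Cdt1 (-0.80 ± 0.24, adjusted p = 0.049), by limma. The median was -0.42, and Gins2, Gins3 and E2f1 differed least (-0.07, -0.11, 0.11). The count was 23 without the 3F array of day 12, 5 without the 4F array of day 12, 1 without 4F day 5 replicate 1, and 0 without the 3F array of day 3, 5 or 8. With the set as a term, which compares 3F through its day 12 array alone, the 3 values were -0.28, -0.01 and 0.12 and none of the 46 was called. Against GFP, 31 genes were called higher in 3F, against 9.47% of all genes, with a median of 0.62. Rif1, Pcna and Prim1 led (1.36 ± 0.21, 1.28 ± 0.23, 1.24 ± 0.27), and E2f1, Pold1 and Gins4 differed least (0.02, 0.17, 0.23). Cdt1 (0.62 ± 0.24), Pola2 (0.39 ± 0.18) and Pold2 (0.29 ± 0.20) did not pass the test against GFP. That count was 12 without 3F day 12, 16 without GFP day 12, 17 without 3F day 8, and 19 without GFP day 5 replicate 2 or either GFP array of day 8.

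**Figure D5:**
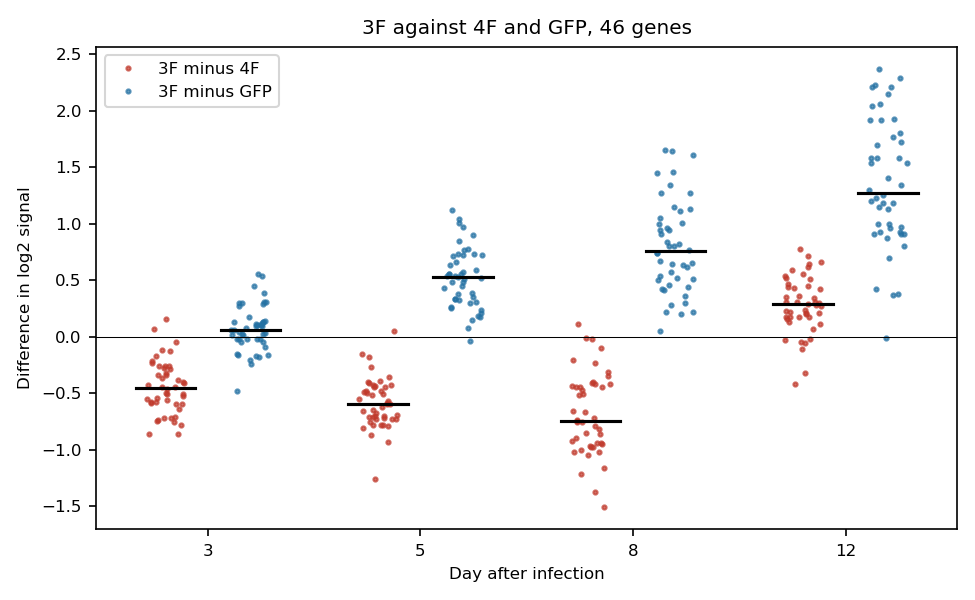
Difference in log2 signal (y) between the 3F array and the mean of 4F (red) or GFP (blue) on the same day (x), 1 point per gene for 46 genes, with the median as a black bar. The medians against 4F are -0.45, -0.60, -0.75 and 0.28, and those against GFP 0.06, 0.52, 0.76 and 1.27.

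Across the 19 group means most of the genes followed one course. Pearson's r between a gene and the median of the others was at least 0.90 for 36 of 46, with a median of 0.94, a description over groups that share 1 day 0 start and 1 normalization. Chaf1b, Gins1 and Mcm10 followed the median most closely, each with r = 0.99, and E2f1 had r = -0.14, with Gins3 and Rpa3 next at 0.83. The lowest group mean was GFP day 8 for 22 genes and GFP day 12 for 22 more, with Cdc7 lowest in GFP day 1 and E2f1 in 4F day 10. The highest was 4F day 5 for 18 genes, and Orc6 was the 1 gene highest at day 0.

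Other replication genes, outside the 46, had a GFP median of -0.69 on day 8, against -1.41 over the 46. How far the choice of the list made this gap was not tested. Of 30 measured among 31 listed, 21 were called lower in GFP on day 8, against 11.2% of all genes. The histone chaperone gene Asf1b fell by 2.65 ± 0.23, Pclaf, which binds the clamp, fell by 2.19 ± 0.42, and Dbf4, the partner of Cdc7, fell by 2.11 ± 0.31, whereas the origin recognition genes Orc3 and Orc5 differed by -0.11 ± 0.09 and -0.24 ± 0.17. In 4F on day 8, 3 of the 30 were called higher (Asf1a, Rfc1, Rnaseh2a) and 1 lower (Clspn), against 7.39% and 8.51% of all genes. Of 14 mitosis genes, 13 were called lower in GFP on day 8 with a median of -2.04, among them the proliferation marker Mki67, which fell by 2.13 ± 0.32, and the kinase gene Plk1, which fell by 2.26 ± 0.34. The GFP median of the mitosis genes was -0.26 on day 1, and their 4F median on day 8 was 0.13. Of 12 genes for E2F factors, their partners and pocket proteins, 8 were called lower in GFP on day 8, led by Rbl1 (-1.47) and E2f8 (-1.46), and the pocket protein gene Rbl2 rose by 1.07 ± 0.18. In 4F on day 8 Rb1 rose by 2.36 ± 0.21 and Tfdp2 rose by 1.23 ± 0.14, and E2f6 fell by 0.55 ± 0.17 and E2f7 fell by 0.72 ± 0.17.

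Markers of cell identity moved with the arms, and their part in the results was not tested. On day 8, 8.92% of all genes were called higher and 11.2% lower in GFP, and 7.39% higher and 8.51% lower in 4F. Of 9 fibroblast markers measured, 6 were called higher in GFP on day 8 (median 1.12), and 4 were called lower and 1 higher in 4F (median -0.67). Of 8 pluripotency markers, 7 were called higher in 4F on day 8, with a median of 2.21, against -0.02 in GFP. Their medians in the single arrays were 3.41 and 3.70 in 4F on days 10 and 12 and 1.04 and 3.49 in 3F on days 8 and 12. Of 5 epithelial genes 3 were called higher in 4F on day 8, with a median of 1.64. Among 7 macrophage genes, Adgre1 read 4.90 in 4F and 5.03 in GFP on day 8 and Ptprc 5.06 and 5.18. Cd14, a receptor for bacterial lipopolysaccharide, read 5.65 at day 0 and was called higher in GFP on day 8 (1.33 ± 0.33 SE, adjusted p = 0.0092 by limma). Lyz2, which encodes lysozyme, read 7.18 at day 0, was called lower in 4F on day 8 (-1.87 ± 0.40 SE, adjusted p = 0.0042 by limma), and read 8.47 in the single GFP array of day 12. The lysosomal gene Cd68 read 6.69 at day 0 and 8.89 and 9.17 in 4F on days 10 and 12. Of 5 endothelial genes, Pecam1 and Cdh5 read 5.18 and 5.39 at day 0 and 5.37 and 5.36 in 4F on day 8, and Tek read 5.45 at day 0 and 8.43 in 4F, 9.30 in 3F and 6.92 in GFP on day 8. By limma Tek was called higher on day 8 in 4F (2.98, adjusted p = 2.9e-06) and in GFP (1.47, adjusted p = 0.00071). Kdr, a receptor for vascular endothelial growth factor, read 6.44 at day 0 and was called lower in both, by -1.17 in 4F (adjusted p = 0.00051) and -0.92 in GFP (adjusted p = 0.0025).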

How the data were processed

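The deposited table holds log2 signals of 31 Affymetrix arrays, 28853 rows, made by the authors. The sources used here name no normalization. Per the labels' protocols, RNA was column-purified with DNase treatment and labelled with a whole-transcript sense target assay. Rows were named through the platform table (21789 with 1 symbol, 1621 with several, 5443 with none), and the row with the highest mean stood for a gene. limma 3.58.1 in R 4.3.3 fitted 1 mean per group (12 residual degrees of freedom), and an additive model of arm and day for 3F (18 arrays), with Benjamini-Hochberg adjustment over 19938 genes. The genes and lists were chosen with earlier results of these data known. In each role group the largest and smallest GFP and the largest 4F difference of day 8 are given in every array, and in each comparison the 3 largest and 3 smallest differences. Same-numbered arrays deviated together (r from 0.081 to 0.69 over 66 pairs, 65 above 0.1), and the RNA amount of the labels also follows the number, so the replicate set was tried as a term. On simulated data for GFP day 8 against day 0 (19938 genes, 200 changed), 84% of genes changed by 1 log2 unit and 99% of those changed by 2 were recovered, with 12 false among 195 calls. The simulated noise was independent between arrays, without the shared deviation of same-numbered arrays, so these rates may not hold for the real arrays. Alternatives were quantile normalization, the mean of rows, an intensity trend with robust prior, a signal filter, each set alone and leaving out each array. The other 10 members' promoters were not used here.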

Additional observations from a re-analysis of the deposited data

Results flagged for a closer look

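The difference between the 4F and GFP arms was itself different on day 8 and day 1 for 24 of the 46 genes, as tested by the interaction term of limma at an adjusted p under 0.05. Of all genes, 3.92% were called in the positive direction. With the set as a term 34 of the 46 were called, and the count also varied when 1 array was left out. All 24 differences were positive, on the log2 scale, so the gap was wider on day 8. In the MCM group they were 1.61 for Mcm7, 1.60 for Mcm5, 1.37 for Mcm6, 1.35 for Mcm2, 1.30 for Mcm3 and 0.83 for Mcm10. In licensing they were 1.38 for Cdt1 and 0.89 for Gmnn, and in helicase activation 0.92 for Cdc45. Among the polymerases they were 1.5 for Pola1, 1.26 for Pold2 and 0.70 for Pole2, and for the clamp and its loader 1.36 for Pcna, 1.32 for Rfc4 and 0.77 for Rfc3. The single-strand binding genes gave 1.31 for Rpa3, 0.87 for Rpa1 and 0.81 for Rpa2, and strand maturation 1.5 for Lig1 and 1.05 for Fen1. Fork protection and chromatin assembly gave 1.22 for Chaf1b, 1.18 for Rif1, 1.10 for Wdhd1 and 0.82 for Chaf1a.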

How the results depend on the processing

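With the replicate block (the set as a term) the genes called were 8, 3 and 10 for 4F on days 2, 3 and 4. They were 11, 11 and 7 on days 5, 6 and 8. For GFP they were 3, 3 and 42 on days 1, 3 and 5. For 4F against GFP they were 20, 26 and 45 on these days and 34 for day 8 less day 1. Within arms they were 1 for 4F day 8 against day 3 and 39 for GFP day 8 against day 1. For 3F they were 36 against GFP and 0 against 4F, where Cdt1 turned to 0.12. Each count but that of 3F against 4F was above that of the main fit, and the counts not named here did not change. An intensity trend gave 2 for 4F day 2 and 0 for GFP day 1, and the mean of rows or quantile normalization gave 1 for 4F day 3. Genes above the median signal alone gave 5 for 3F against 4F. Past 1.5-fold in either direction lay 2, 4, 24 and 4 genes in 3F on days 3, 5, 8 and 12 and 12 in 4F on days 10 and 12, against 9.09%, 12.1%, 15.8%, 15.4%, 19.8% and 20.1% of all genes, and quantile normalization left 0 past 2-fold in 4F on day 12. Between replicate 2 arrays the median of 4F day 2 was 0. Medians that changed sign were 4F day 3 against day 1 between replicate 1 arrays (-0.05) and 4F day 8 against day 3 between replicate 2 arrays (-0.05). The cause was not tested in any of these. Leaving out 1 array gave 0 to 7, 0 to 2, 1 to 2, 2 to 4, 2 to 7 and 2 to 3 genes for 4F on days 2, 3, 4, 5, 6 and 8 and 0 on day 1. It gave 0 to 2, 0 to 2, 9 to 30 and 40 to 42 for GFP on days 1, 3, 5 and 8. For 4F against GFP it gave 0 to 5, 5 to 12, 33 to 43 and 44 to 45 on these days, 45 over their mean and 9 to 25 for day 8 less day 1. Within arms it gave 0 for 4F day 3 against day 1, 0 to 1 for 4F day 8 against day 3 and 20 to 33 for GFP day 8 against day 1. It gave 0 to 23 for 3F against 4F and 12 to 32 for 3F against GFP. Where leaving out an array leaves 1 in a group, that array is assumed to vary like the other groups. Of the values of single genes under the other alternatives, 374 kept direction and side of the threshold, 9 lost the call and 1 reversed.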
